A study of Mus musculus with 16 samples.

Results

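The hypoxia-inducible factor (HIF) pathway was followed through 10 of its genes in rotator cuff muscle of 2 inbred mouse strains, with and without injury. They are the factor subunits Hif1a, Epas1 and Arnt, the oxygen-sensing hydroxylases Egln1, Egln2, Egln3 and Hif1an, the ubiquitin ligase subunit Vhl, and the growth factors Vegfa and Vegfb. They were picked by symbol, 10 of the 11710 genes in the deposited count table, and all 10 passed the filter on low counts. The samples were muscle of C57BL/6J mice, a common reference strain (BL6), and of MRL/MpJ mice, a strain known for unusual closure of ear wounds (MRL). Each strain had 4 unoperated libraries and 4 libraries from mice whose rotator cuff tendon was removed and whose muscle was denervated, 16 libraries in all. The series text names the infraspinatus and the sample labels the supraspinatus, so the tissue is called rotator cuff muscle here. The time from surgery to collection and the age and sex of the mice are not given in the sources used here. No label says that the 4 libraries of a group came from separate animals, so p-values measure the spread between these libraries, part of which may be technical.

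HIF-alpha proteins, encoded by Hif1a and Epas1, are made continuously and controlled mostly by their stability. While oxygen is present, the prolyl hydroxylases of the Egln genes mark them for capture by the Vhl protein and destruction, and the asparaginyl hydroxylase of Hif1an (also called FIH) keeps the remainder from the coactivators p300 and CBP. When oxygen falls, the alpha subunit pairs with the Arnt protein and switches on genes of glycolysis and vessel growth, among them Vegfa, which in skeletal muscle is needed to maintain capillaries. HIF-1alpha has been studied in the ear wound healing of MRL mice. Only mRNA was measured here, so the stability and activity of the proteins were not.

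Operated muscle held less mRNA of 3 pathway genes than unoperated muscle in both strains: Hif1an, Egln1 and Arnt. Hif1an was 3.37-fold lower in operated than in unoperated BL6 muscle and 2.32-fold lower in MRL. Egln1 was 1.86-fold lower in BL6 and 1.43-fold lower in MRL, and Arnt was 1.69-fold lower in BL6 and 1.29-fold lower in MRL. In MRL the falls of Egln1 and Arnt did not pass the test in most fits that left out 1 library. The fall of Hif1an passed in every such fit in both strains. Hif1a itself, the gene of interest for MRL healing, did not pass the test in any comparison, and for none of the 10 genes did the effect of surgery differ between the strains past the threshold. A gene is called when its adjusted p is under 0.05 in edgeR's quasi-likelihood test, with Benjamini-Hochberg adjustment over the 11709 genes tested. By that measure 5 of the 10 genes were called in BL6, 4 lower and 1 higher, where 67.9% of all genes tested were called, 35.1% higher and 32.8% lower. In MRL 3 of the 10 were called, all lower, where 45.0% of all genes were called, 22.3% higher and 22.7% lower. The members' shares lie near or under these backgrounds, so the count of called members is not a result about the pathway. The median log2 fold change of the 10 genes was -0.10 in BL6 and 0.01 in MRL, beside 0.04 and 0.01 over all genes tested.

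Total counts were 24323862 to 43552964 per library, and every operated BL6 total lay under every unoperated BL6 total. The muscle fibre markers (Ckm, Acta1 and 6 others) were abundant in all libraries, with a summed level of 48400 to 141000 counts per 1000000 counts of a library (CPM, with library sizes scaled by the trimmed mean of M values). Results are also given with 3 libraries left out together, a choice made after the data were seen. Unoperated MRL replicate 1 had a score of -7.49 on the first principal component while its group was otherwise at -44.9 to -38.7, and its summed macrophage markers were 134 CPM beside 34 to 39.3. Operated BL6 replicate 4 was at 86.1 with the others at 16.7 to 51, and operated MRL replicate 4 was at 13.4 with the others at 25.9 to 54.8. In these operated groups the score alone does not single out a library, since operated BL6 replicate 2 at 16.7 and operated MRL replicate 3 at 54.8 also lay at an end of their group. The fit without the 3 called 6 of the 10 genes in BL6, 3 higher (Epas1, Vegfa and Vegfb) and 3 lower, beside 67.6% of all genes. In MRL it called 5, 1 higher (Epas1) and 4 lower, beside 62.4%. Scaling by total counts alone called 4 higher (Epas1, Vegfa, Vegfb and Vhl) and 3 lower in BL6, beside 63.0% of all genes, and 0 higher and 2 lower in MRL, beside 33.5%. Hif1an and Egln1 were among those called lower in both strains in each of these fits.

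**Figure D1:**
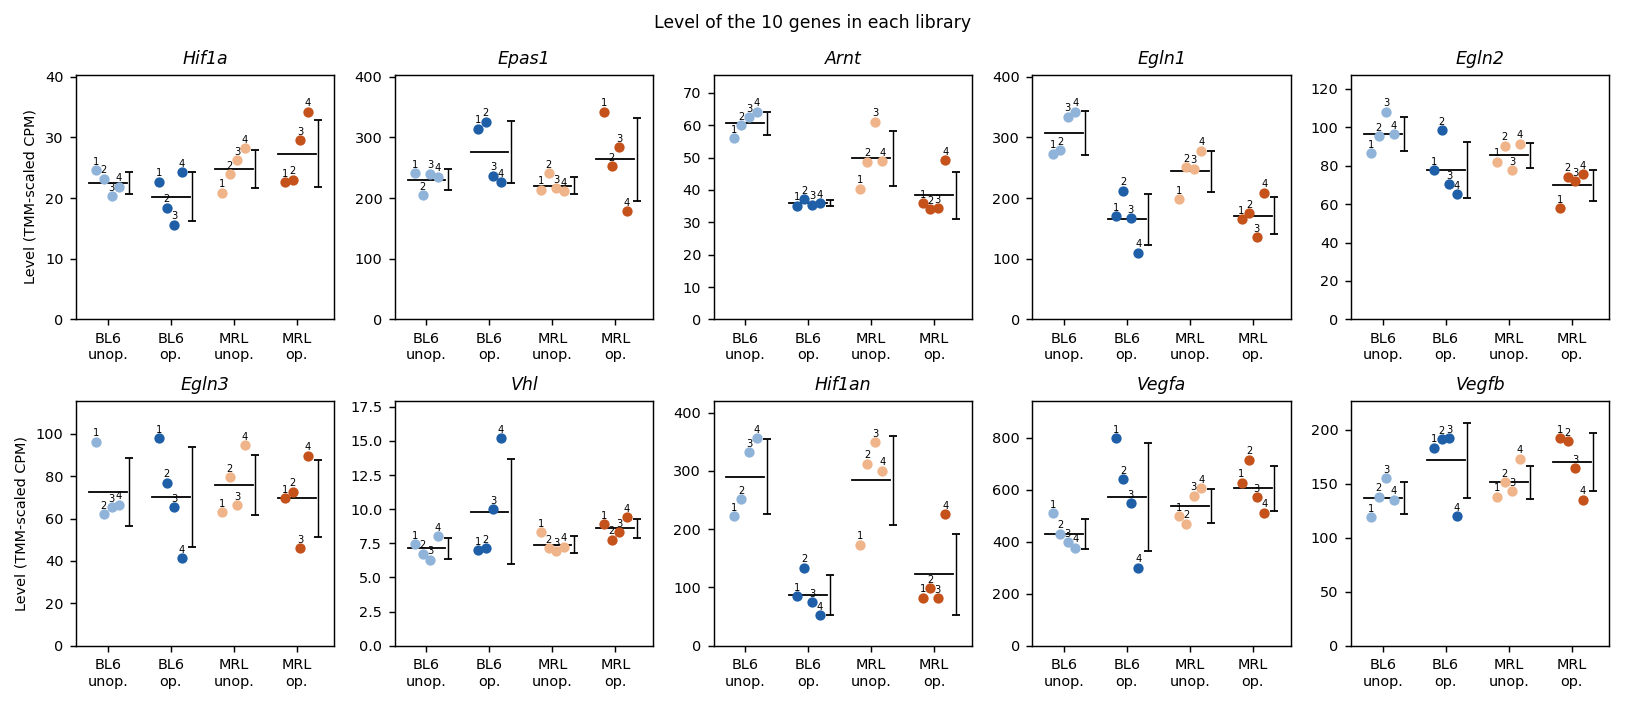
Level of each of the 10 genes in every library (y axis, TMM-scaled CPM from 0) by group (x axis), with points numbered by replicate, horizontal lines at group means and bars of 1 SD over 4 libraries. Arnt, Egln1 and Hif1an of operated BL6 lie wholly under unoperated BL6, and operated MRL replicate 4 lies above its group for Arnt and Hif1an.

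Compared per length of transcript, in RPKM (the CPM divided by the exon length in kilobases), the growth factors ranked first and the factor subunit Hif1a near the end. The median level over the 16 libraries was 124 RPKM for Vegfa, 95.4 for Vegfb, 58.6 for Egln1 and 42.7 for Epas1. Hif1an (29.9 RPKM), Egln2 (28.5) and Egln3 (25.6) followed close together. Arnt was at 5.56, Hif1a at 3.92 and Vhl at 2.54 RPKM. Over the 16 libraries Hif1an ran from 7.97 to 53.9 RPKM, which spans the levels of Egln2 (20.7 to 38.6) and Egln3 (15.5 to 36.8), so the order of these 3 does not hold beyond their spread. The ranges of Arnt (4.25 to 8.0 RPKM), Hif1a (2.65 to 5.81) and Vhl (2.1 to 5.09) also overlapped. Hif1an was the most variable of the 10, with a highest library 6.76 times the lowest, and Vegfb the least, at 1.62 times. The longest transcript of each member had no match of at least 95% identity over at least 300 bases among GENCODE M21 transcripts of other genes. The genome outside these transcripts was not searched. The exons of Hif1a (chr12:73901375-73947530, + strand, GRCm38) overlap those of the antisense gene Gm15283 over 330 bases and of Gm49321 over 148 bases. The exons of Egln2 overlap those of Cyp2t4 over 11 bases, and the use of strand in counting is not given in the sources used here.

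The promoters of the 3 genes called in both strains, and of Hif1a for comparison, are shown because HIF binds DNA at short sites whose core reads ACGTG or GCGTG. The windows run from 250 bases before to 50 after the start in RefSeq on GRCm38.p6, read 5′ to 3′ on the gene's strand, with every match to ACGTG or GCGTG on either strand in capitals. Arnt lies at chr3:95434140-95434439 (+), Egln1 at chr8:124949205-124949504 (-), Hif1an at chr19:44562604-44562903 (+) and Hif1a at chr12:73907617-73907916 (+).
Arnt: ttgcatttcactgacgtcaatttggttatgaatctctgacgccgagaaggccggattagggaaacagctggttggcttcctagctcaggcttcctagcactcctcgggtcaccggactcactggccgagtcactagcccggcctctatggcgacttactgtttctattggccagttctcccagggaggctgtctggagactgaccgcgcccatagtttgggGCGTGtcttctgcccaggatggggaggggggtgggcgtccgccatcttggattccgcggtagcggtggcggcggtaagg
Egln1: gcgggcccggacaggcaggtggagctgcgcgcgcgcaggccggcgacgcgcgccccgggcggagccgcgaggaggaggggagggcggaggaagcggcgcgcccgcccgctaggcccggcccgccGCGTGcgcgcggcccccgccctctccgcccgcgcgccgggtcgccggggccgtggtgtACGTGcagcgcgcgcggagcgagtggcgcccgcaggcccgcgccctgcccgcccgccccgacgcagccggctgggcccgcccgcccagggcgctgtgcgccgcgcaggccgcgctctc
Hif1an: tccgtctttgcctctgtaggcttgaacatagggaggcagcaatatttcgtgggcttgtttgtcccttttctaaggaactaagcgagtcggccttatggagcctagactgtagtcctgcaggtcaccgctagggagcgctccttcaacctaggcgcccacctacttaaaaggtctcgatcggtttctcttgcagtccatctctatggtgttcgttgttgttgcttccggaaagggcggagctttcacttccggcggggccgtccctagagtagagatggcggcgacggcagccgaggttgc
Hif1a: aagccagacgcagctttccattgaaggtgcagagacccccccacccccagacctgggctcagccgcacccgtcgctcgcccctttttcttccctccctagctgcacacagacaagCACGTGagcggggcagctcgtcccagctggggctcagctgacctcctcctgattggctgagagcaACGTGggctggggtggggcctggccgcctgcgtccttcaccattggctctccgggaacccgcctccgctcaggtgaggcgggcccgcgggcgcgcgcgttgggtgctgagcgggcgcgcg
The Hif1a window holds 3 matches, 2 of them the overlapping readings of CACGTG on its 2 strands, which is also the sequence of an E-box. The Egln1 window holds 2 matches, Arnt 1 and Hif1an 0. The 9 members with an entry have 11 such windows, of which 8 hold at least 1 match. Of all 32851 windows 43.8% hold 1, and of the 11767 windows of genes tested here 61.7% do. A match describes the letters in this window and not a bound site.

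Hif1an, the asparaginyl hydroxylase, changed most among the 10 genes in both strains. In BL6 its level was 222, 251, 332 and 356 CPM in unoperated libraries 1 to 4 and 84.4, 134, 74.1 and 52.7 CPM in operated libraries. The MRL libraries held 173, 312, 349 and 300 CPM unoperated and 82.3, 99.1, 81.6 and 226 CPM operated. All operated BL6 libraries lay under all unoperated ones, whereas in MRL operated replicate 4 lay above unoperated replicate 1. The log2 fold change was -1.75 (SE 0.35, adjusted p = 0.000531, edgeR) in BL6 and -1.21 (SE 0.35, adjusted p = 0.0118) in MRL. The Hif1an call was kept in each strain whichever 1 library of the groups compared was left out, and without the 3 libraries left out together its log2 fold change was -1.61 in BL6 and -1.88 in MRL.

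Egln1 encodes PHD2, the main prolyl hydroxylase acting on HIF-1alpha. Its level was 273, 279, 334 and 342 CPM in unoperated BL6 and 170, 212, 167 and 110 CPM in operated BL6. MRL muscle held 198, 251, 248 and 278 CPM unoperated and 165, 175, 135 and 209 CPM operated. The BL6 groups did not overlap, and the MRL groups overlapped only through unoperated replicate 1 and operated replicate 4. The Egln1 log2 fold change was -0.90 (SE 0.18, adjusted p = 0.000624, edgeR) in BL6 and -0.51 (SE 0.18, adjusted p = 0.0336) in MRL. The BL6 call held without any single library. The MRL call was lost without any 1 of 6 libraries (unoperated replicates 2, 3 and 4 and operated replicates 1, 2 and 3), with values of -0.41 to -0.52 and adjusted p up to 0.110. Leaving out all 3 libraries gave -0.72 in MRL, past the threshold.

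Egln2 encodes PHD1, and Egln3 encodes PHD3, which is itself a gene that hypoxia induces in many cells. Egln2 was at 86.6, 95.2, 108 and 96.5 CPM in unoperated BL6 and at 77.6, 98.4, 70.4 and 65 CPM in operated BL6. The MRL levels of Egln2 were 82, 90.3, 77.6 and 91.5 CPM unoperated and 57.9, 74.2, 71.8 and 75.6 CPM operated. The MRL groups did not overlap while the BL6 groups did, through operated replicate 2. The test gave the reverse: Egln2 was called lower in BL6, at a log2 fold change of -0.31 (SE 0.13, adjusted p = 0.0437, edgeR), and not called in MRL, at -0.29 (SE 0.13, adjusted p = 0.0801). The BL6 call was lost without any 1 of 6 libraries (unoperated replicates 2, 3 and 4, operated 1, 3 and 4) and without the 3 libraries, where the MRL value of -0.36 was called instead. It was also lost with scaling by total counts (-0.20, adjusted p = 0.118) and in a fit of the 2 BL6 groups alone (-0.34, adjusted p = 0.0528). Egln3 had log2 fold changes of -0.05 (adjusted p = 0.873) in BL6 and -0.13 (adjusted p = 0.684) in MRL, with SEs of 0.24. Its libraries ranged from 41.2 to 97.9 CPM, and operated BL6 alone covered that whole range.

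Arnt, the partner that both HIF-alpha subunits need to bind DNA, was at 56, 59.9, 62.4 and 64.1 CPM in unoperated BL6. In operated BL6 it was at 35.1, 37.1, 35.4 and 35.8 CPM, an SD of 0.875. Among MRL libraries it was at 40.4, 48.7, 61.1 and 48.8 CPM unoperated and at 35.9, 34.1, 34.4 and 49.2 CPM operated. The operated BL6 libraries lay together and under all unoperated ones, and in MRL operated replicate 4 lay among the unoperated libraries. The Arnt log2 fold change was -0.76 (SE 0.13, adjusted p = 0.000164, edgeR) in BL6 and -0.37 (SE 0.13, adjusted p = 0.0297) in MRL. In BL6 the call held without any single library. In MRL it was lost without any 1 of 6 libraries (unoperated replicates 2, 3 and 4 and operated 1, 2 and 3), at values down to -0.25 without unoperated replicate 3. It was also lost with scaling by total counts only (-0.31, adjusted p = 0.147) and in a fit of the 2 MRL groups alone (-0.38, adjusted p = 0.0817), whereas without the 3 libraries it was -0.61 and called. Groups of libraries did not overlap for 3 of the 10 genes in BL6 (Arnt, Egln1 and Hif1an), where this held for 56.8% of all genes, and for 1 in MRL (Egln2), where it held for 33.7%.

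Hif1a had group means of 22.5 CPM in unoperated and 20.3 CPM in operated BL6, and of 24.8 and 27.3 CPM in MRL. By library its level was 24.6, 23.2, 20.3 and 21.9 CPM in unoperated BL6 and 22.7, 18.4, 15.6 and 24.3 CPM in operated BL6. The MRL levels were 20.9, 23.9, 26.2 and 28.2 CPM unoperated and 22.6, 23, 29.5 and 34.2 CPM operated. Every pair of groups overlapped, with the lowest value in operated BL6 replicate 3 and the highest in operated MRL replicate 4. The Hif1a log2 fold change with surgery was -0.15 (SE 0.16, adjusted p = 0.400, edgeR) in BL6 and 0.14 (SE 0.16, adjusted p = 0.467) in MRL. The difference between them was 0.29 (SE 0.22, adjusted p = 0.501). The sign of these small values is not settled, since scaling by total counts alone gave 0.0016 in BL6 and leaving out the 3 libraries gave -0.072 in MRL.

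Epas1 encodes HIF-2alpha, the alpha subunit that is abundant in endothelial cells. It was at 241, 205, 240 and 235 CPM in unoperated BL6 and at 314, 326, 237 and 226 CPM in operated BL6. MRL libraries held 214, 241, 216 and 211 CPM unoperated and 342, 252, 284 and 178 CPM operated. Operated replicate 4 was the lowest operated library in both strains, and lowest of all 8 in MRL. The Epas1 log2 fold change was 0.26 in both strains (SE 0.17, adjusted p = 0.191 in BL6 and 0.219 in MRL, edgeR). Without the 3 libraries it was called higher in both, at 0.31 (adjusted p = 0.0425) and 0.38 (adjusted p = 0.0263). In MRL leaving out operated replicate 4 alone gave 0.41 (adjusted p = 0.027), and in BL6 scaling by total counts gave 0.37 (adjusted p = 0.0293). A ratio of 2 genes within a library does not depend on library scaling. The log2 ratio of Hif1a to Epas1 counts was -3.36 ± 0.18 (SD, n = 4) in unoperated and -3.77 ± 0.396 in operated BL6 (two-sided exact permutation p = 0.114, and 0.0286 without operated replicate 4). In MRL it was -3.16 ± 0.22 unoperated and -3.25 ± 0.645 operated (exact permutation p = 0.8). These are among 8 ratio tests, whose adjusted p-values were 0.686 to 0.971, and 4 libraries against 4 cannot go below 0.0286.

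Vhl, the subunit that recognises hydroxylated HIF-alpha, had the lowest median RPKM of the 10 genes. It was at 7.45, 6.75, 6.29 and 8.01 CPM in unoperated BL6 and at 6.98, 7.13, 9.99 and 15.2 CPM in operated BL6. The MRL levels of Vhl were 8.31, 7.16, 6.9 and 7.26 CPM unoperated and 8.89, 7.77, 8.31 and 9.42 CPM operated. Replicate 4 held the highest operated value in both strains, and both pairs of groups overlapped. Vhl was called higher in BL6 at a log2 fold change of 0.47 (SE 0.20, adjusted p = 0.0477, edgeR), which fell to 0.17 (adjusted p = 0.318) without operated replicate 4. The call was also lost without any 1 of the unoperated replicates 1 to 4 or operated replicate 3 (0.41 to 0.53), without mitochondrial genes in the table (0.45, adjusted p = 0.0539), with limma voom (0.44, adjusted p = 0.0581), in a fit of the 2 BL6 groups alone (0.45, adjusted p = 0.142) and without the 3 libraries (0.15, adjusted p = 0.367). In MRL the value was 0.22 (SE 0.20, adjusted p = 0.384).

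Vegfa, the main angiogenic ligand under HIF control, was at 509, 431, 398 and 377 CPM in unoperated BL6 and at 798, 641, 549 and 300 CPM in operated BL6. MRL muscle held 497, 469, 576 and 606 CPM unoperated and 627, 715, 570 and 511 CPM operated. In BL6, 3 operated libraries lay above all unoperated ones and replicate 4 lay under them all. The Vegfa log2 fold change was 0.42 (SE 0.22, adjusted p = 0.109, edgeR) in BL6 and 0.17 (SE 0.22, adjusted p = 0.535) in MRL. Without operated BL6 replicate 4 the BL6 value was 0.62 (adjusted p = 0.00327), and scaling by total counts gave 0.48 (adjusted p = 0.0284). That library also had the highest summed fibroblast markers of its group, 7480 CPM beside 1060 to 1960, the highest macrophage markers, 208 CPM beside 34.8 to 62.5, and the lowest muscle fibre markers, 48400 CPM beside 69800 to 114000. Its summed endothelial markers were also the highest of the group, 999 CPM beside 735 to 947 CPM. The part of all these markers in its Vegfa level was not tested.

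Vegfb, a related ligand of the receptor Flt1 that hypoxia does not typically induce, was at 119, 138, 155 and 135 CPM in unoperated BL6 and at 183, 191, 192 and 120 CPM in operated BL6. In MRL Vegfb was at 138, 151, 143 and 173 CPM unoperated and at 192, 189, 164 and 135 CPM operated. Replicate 4 was again the lowest operated library in each strain. The Vegfb log2 fold change was 0.33 (SE 0.16, adjusted p = 0.0753, edgeR) in BL6 and 0.17 (SE 0.16, adjusted p = 0.392) in MRL, and without operated BL6 replicate 4 the BL6 value was 0.46 (adjusted p = 0.00649). Scaling by total counts gave 0.44 (adjusted p = 0.00363) for Vegfb in BL6. The log2 ratio of Vegfa to Vegfb counts was 1.65 ± 0.324 (SD, n = 4) in unoperated and 1.68 ± 0.346 in operated BL6 (exact permutation p = 0.886). In MRL it was 1.82 ± 0.153 and 1.84 ± 0.105 (exact permutation p = 0.971). The authors' deposited table called 5 of the 10 genes in BL6, where it called 64.9% of its genes: Arnt, Egln1, Hif1an, Vegfa at a log2 fold change of 0.51 and Vegfb at 0.41. In MRL the authors' deposited table called Arnt, Egln1, Egln2 and Hif1an, where it called 56.4% of its genes.

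**Figure D2:**
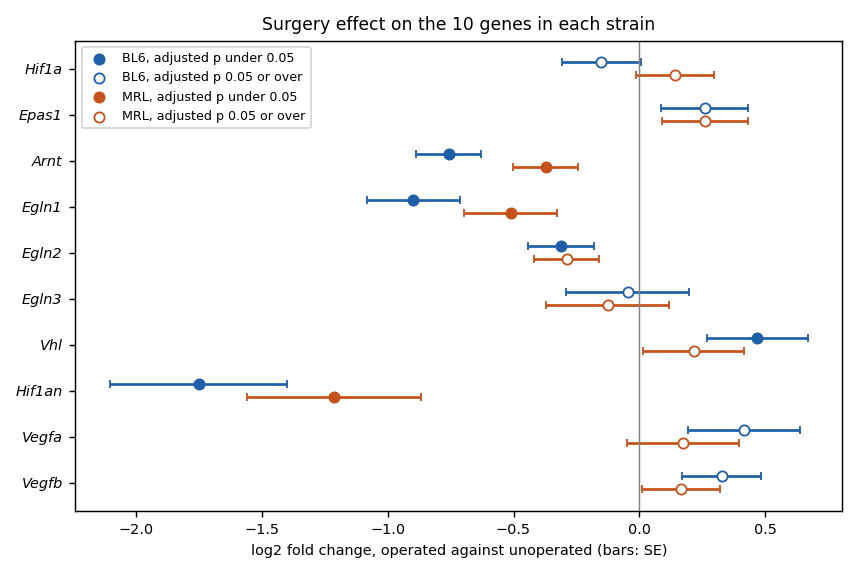
Log2 fold change of each gene, operated against unoperated (x axis), in BL6 (blue) and MRL (orange), with bars of 1 SE and filled points for an adjusted p under 0.05 in edgeR. Hif1an, Egln1 and Arnt lie to the left in both strains, with BL6 values of -1.75, -0.90 and -0.76 and MRL values of -1.21, -0.51 and -0.37.

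Whether surgery acted differently in MRL than in BL6 was tested as an interaction of strain and surgery. None of the 10 genes was called in it by edgeR or by DESeq2, where edgeR called 0.248% of all genes and DESeq2 2.13%. None had an unadjusted p under 0.05 in edgeR either, beside 15.7% of all genes. Of the 3 genes lower in both strains, the MRL change exceeded the BL6 change by 0.39 (SE 0.18, adjusted p = 0.320) for Arnt, 0.39 (SE 0.26, adjusted p = 0.452) for Egln1 and 0.54 (SE 0.48, adjusted p = 0.571) for Hif1an, each a smaller fall in MRL. For Vegfa the difference was -0.24 (SE 0.31, adjusted p = 0.699). The Hif1an difference turned to -0.27 without the 3 libraries. With SEs of this size, the tests do not show that the strains responded alike.

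The strains were also compared at the same surgical state. None of the 10 genes was called between unoperated MRL and BL6, where 10.4% of all genes were called, nor between operated MRL and BL6, where 12.9% were. DESeq2 called 0 in both, beside 14.2% of all genes between unoperated and 16.5% between operated strains. The unadjusted p of edgeR was under 0.05 for 1 of the 10 genes in each comparison, beside 24.3% and 26.7% of all genes. In unoperated muscle that gene was Arnt, at a log2 difference of -0.29 (SE 0.13, adjusted p = 0.185), with 3 of 4 MRL libraries under all BL6 libraries. In operated muscle it was Hif1a, at 0.43 (SE 0.16, adjusted p = 0.0835), higher in MRL. Leaving out 1 library at a time gave 0.30 to 0.54 for Hif1a, and only without operated BL6 replicate 4 was it called (0.54, adjusted p = 0.0416). For Hif1a the 2 operated groups overlapped, 15.6 to 24.3 CPM in BL6 and 22.6 to 34.2 CPM in MRL, as did those of every other member. No member's groups were apart in either state, where this held for 25.1% of all genes between unoperated and 13.6% between operated groups. The authors' deposited table also called 0 of the 10 genes in these 2 comparisons, beside 9.86% and 11.9% of its genes. The log2 ratio of Hif1a to Epas1 was 0.514 higher in operated MRL than in operated BL6 (exact permutation p = 0.286) and 0.2 higher in unoperated MRL (exact permutation p = 0.2).

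The other genes of the pathway were read from lists set with the members. Of 11 partners and regulators, 4 were called higher and 4 lower in BL6 with surgery, and 3 higher and 2 lower in MRL, beside the 35.1% and 32.8% of all genes in BL6 and the 22.3% and 22.7% in MRL. Scaling by total counts called 1 higher and 2 lower in MRL, beside 33.5% of all genes in either direction. The list's median log2 fold change was 0.24 in BL6 and 0.14 in MRL, beside 0.04 and 0.01 over all genes. Elob, an adaptor of the Vhl ligase, rose by 0.89 in BL6 and 0.61 in MRL, although its level is uncertain because near-identical copies exist in the genome. Cul2, the scaffold of that ligase, was lower at -0.83 and -0.56, and Ep300, which encodes the p300 coactivator that Hif1an keeps from HIF-alpha, at -1.35 and -0.63. Adjusted p-values of these 6 values were 0.0112 or less (edgeR).

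Arnt2, a close relative of Arnt, was the only 1 of these 11 genes called between the strains in both surgical states. It was at 6.85 to 11.3 CPM in unoperated BL6 and 0.704 to 1.41 CPM in unoperated MRL, and at 2.97 to 5.46 and 0.694 to 1.54 CPM after surgery. In both states every MRL library lay under every BL6 library. The Arnt2 log2 difference was -3.05 (SE 0.28, adjusted p = 1.4e-06, edgeR) unoperated and -1.85 (SE 0.28, adjusted p = 0.000269) operated. With surgery it was lower in BL6 at -1.03 (adjusted p = 0.00257) and at 0.16 (adjusted p = 0.658) in MRL, and the difference between these, 1.19 (SE 0.38), had an adjusted p of 0.188. In unoperated muscle Siah2, a ubiquitin ligase that targets prolyl hydroxylases, was also called, higher in MRL by 0.65 (adjusted p = 0.00415), with 0.37 (adjusted p = 0.0842) after surgery. Of the 11 genes, 2 were called between unoperated and 1 between operated strains, beside 10.4% and 12.9% of all genes. Arnt2 exons overlap those of the antisense gene Gm30873 over 214 bases. Whether reads of both strains were placed equally well on the reference genome was not tested, for Arnt2 or for any other difference between strains.

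Genes that hypoxia is known to induce moved in both directions. Of 27 tested, 10 were called higher and 9 lower in BL6, and 6 higher and 7 lower in MRL, where 67.9% and 45.0% of all genes were called. Scaling by total counts called 4 higher and 4 lower in MRL, beside 33.5% of all genes in either direction. The median log2 fold change was 0.10 in BL6 and 0.06 in MRL, beside 0.04 and 0.01 over all genes. Plod2, a lysyl hydroxylase of collagen, had the largest called rise in both strains, 1.84 (SE 0.30) in BL6 and 1.10 (SE 0.30) in MRL. It went from 2.41 to 3.82 CPM in unoperated to 7.44 to 20.3 CPM in operated BL6, with no overlap. Pfkfb3, which makes the activator of phosphofructokinase, had the largest fall in BL6, -2.74 (SE 0.39, adjusted p = 4.8e-05, edgeR), from 175 to 216 CPM unoperated to 24.2 to 32.2 CPM operated. In MRL the Pfkfb3 value was -1.07 (SE 0.37, adjusted p = 0.0291), and the call held in 4 of 8 fits that left out 1 library. Unoperated MRL replicate 1 held 241 CPM of Pfkfb3 beside 56.9 to 106 CPM in the rest of its group, and without it the value was -0.54 (adjusted p = 0.158). Hk2, the hexokinase of muscle, had the largest fall in MRL, -1.44 (SE 0.26, adjusted p = 0.00136), with a value of -0.59 (adjusted p = 0.051) in BL6. Between unoperated strains 4 of the 27 were called, beside 10.4% of all genes. Ddit4, Hk2 and Higd1a were higher in MRL (1.06, 0.84 and 0.57) and Bnip3l lower (-0.48). Between operated strains 2 of the 27 were called, beside 12.9% of all genes. These were Pdk1 and Gbe1, higher in MRL (0.83 and 1.36). Of the 8 fits that left out 1 library, the calls of Higd1a and Gbe1 held in 8, those of Ddit4, Bnip3l and Pdk1 in 4 and that of Hk2 in 1. Higd1a exons overlap those of the antisense gene Gm47112 over 683 bases. The level of Bnip3l is uncertain because of the near-identical copy Bnip3l-ps (99.2% identity over 663 bases). Operated MRL replicate 4 held 105 CPM of Pdk1 beside 38.8 to 49.9 CPM in its group, and without it the Pdk1 difference between operated strains was 0.41 (adjusted p = 0.118).

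The glucose transporter gene Slc2a1 rose by 0.63 in BL6 (adjusted p = 0.0124, edgeR) and had a value of 0.36 in MRL (adjusted p = 0.153). Pdk1, the kinase that holds back pyruvate dehydrogenase, was lower in BL6 at -1.22 (adjusted p = 0.000627) and at -0.62 in MRL (adjusted p = 0.052), where it was called at -1.03 (adjusted p = 0.000168) without operated replicate 4. Bnip3, a mitophagy receptor, was not called in either strain (0.24 and 0.06), and its level is uncertain because near-identical copies exist. Of 9 glycolytic enzymes that HIF-1 can drive, 1 was called in each strain, beside 67.9% of all genes in BL6 and 45.0% in MRL. That gene was Pfkl, a phosphofructokinase subunit, higher by 0.69 in BL6 and 0.85 in MRL. Ldha, Pgk1 and Eno1 had values of -0.31, 0.02 and 0.21 in BL6 and -0.25, -0.12 and 0.14 in MRL and were not called. The levels of these 3 genes are likewise uncertain because of near-identical copies, Eno1b among them for Eno1. Between the strains Eno1 was lower in MRL at -0.83 unoperated and -0.90 operated (adjusted p = 0.000194 and 8.1e-05, edgeR). It was the only 1 of the 9 called in each state, beside 10.4% of all genes unoperated and 12.9% operated.

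The VEGF ligands, their receptors and the angiopoietins had median log2 fold changes of 0.82 in BL6 and 0.74 in MRL, beside 0.04 and 0.01 over all genes. Of 12 genes, 8 were called higher and 1 lower in BL6, where 35.1% of all genes were called higher and 32.8% lower. In MRL 6 were called higher and 0 lower, where 22.3% of all genes were called higher and 22.7% lower. Angpt2, which loosens vessel walls through the receptor Tek, had the largest rise in both strains, 1.58 (SE 0.31) in BL6 and 1.51 (SE 0.31) in MRL. It went from 2.27 to 3.85 CPM unoperated to 4.22 to 11.7 CPM operated in BL6, and from 2.96 to 4.71 to 8.88 to 16.5 CPM in MRL, without overlap. Angpt1, the stabilising ligand of the same receptor, was lower in BL6 at -0.93 (SE 0.21, adjusted p = 0.00124, edgeR) and at 0.17 in MRL (adjusted p = 0.518). Angpt1 exons overlap those of the antisense gene Gm17473 over 737 bases. The difference between the strains for Angpt1, 1.10 (SE 0.29), was not called (adjusted p = 0.131). The ligand genes Vegfc, Vegfd and Pgf rose in BL6 by 0.77, 0.84 and 1.13 and had values of 0.45, 0.23 and 0.10 in MRL, not called. The Vegfc call in BL6 has adjusted p = 0.0485 and was lost in 6 of 8 fits that left out 1 library, at 0.37 (adjusted p = 0.277) without operated replicate 4. Among receptors, chosen after their values were seen, Tie1 rose by 1.30 and 1.23, and Kdr rose by 1.11 in MRL with a value of 0.53 in BL6 (adjusted p = 0.0858). No gene of the 4 pathway lists was called in the interaction of strain and surgery by edgeR, with unadjusted p under 0.05 for 3 of 11 partners and regulators, 6 of 27 hypoxia-induced genes, 0 of 9 glycolytic genes and 3 of 12 VEGF family genes, beside the 15.7% of all genes. DESeq2 called 1, Angpt1 (adjusted p = 0.0332), beside 2.13% of all genes. Without the 3 libraries, edgeR called 1, Pfkfb3 (adjusted p = 0.0264), beside 0.572% of all genes.

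**Figure D3:**
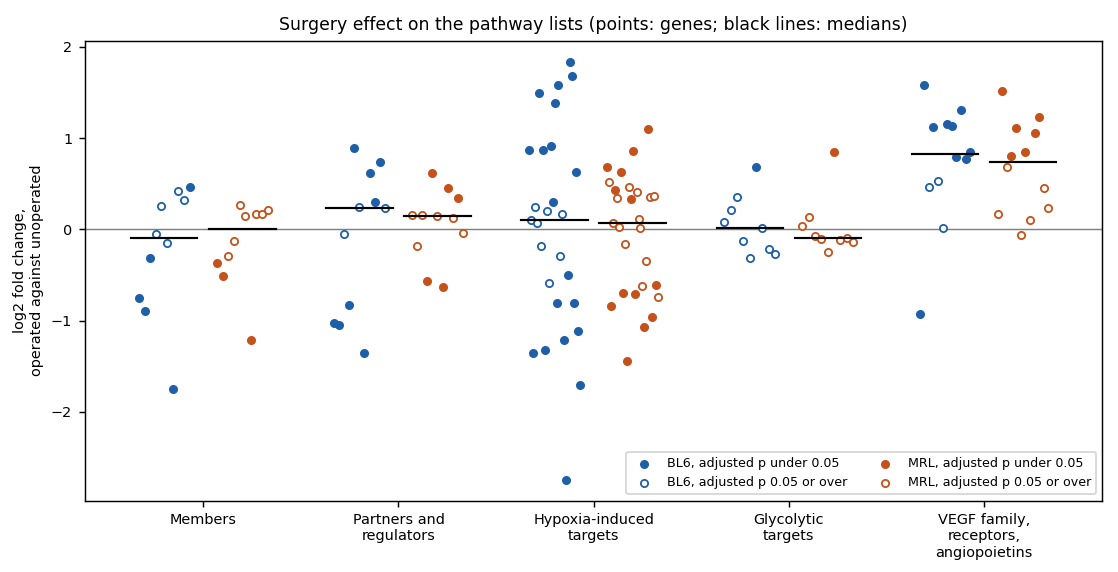
Log2 fold change, operated against unoperated (y axis), of each gene in the members and the 4 pathway lists (x axis), in BL6 (blue) and MRL (orange), filled where the adjusted p is under 0.05 and with a line at each median. The VEGF family list has medians of 0.82 and 0.74, while those of the hypoxia-induced genes are 0.10 and 0.06, with called genes on both sides of 0.

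Endothelial markers moved with this last group of genes. All 8 were called higher with surgery in both strains, beside 35.1% of all genes in BL6 and 22.3% in MRL. Without the 3 libraries 7 of the 8 were called higher in BL6 and 8 in MRL. Their summed level was 285 to 369 CPM in unoperated and 735 to 999 CPM in operated BL6, and 227 to 334 CPM in unoperated MRL. In operated MRL it was 871, 718 and 781 CPM in replicates 1 to 3 and 356 CPM in replicate 4. In that library every member lay at an end of the operated MRL group. Epas1, Vegfa and Vegfb were lowest there, as were Flt1 and Tie1, and all other members were highest. In operated BL6 replicate 4, Epas1, Vegfa, Vegfb and Flt1 were also the lowest of their group, while Tie1 was not. The endothelial sum of that BL6 library was the highest of its group, 999 CPM beside 735 to 947 CPM. The part of endothelial RNA in these results was not tested. In whole muscle, fewer cells of a type and less RNA per cell cannot be told apart. All 5 adipocyte markers were called higher in both strains, and their sum went from 212 to 282 CPM to 1220 to 1680 CPM in BL6 and from 267 to 375 CPM to 1100 to 1920 CPM in MRL. All 5 Schwann cell markers were called higher in both strains, with sums of 79.4 to 105 CPM unoperated and 215 to 533 CPM operated in BL6, and 69.8 to 130 CPM and 123 to 360 CPM in MRL. Of 6 pericyte and smooth muscle markers, 6 were called higher in BL6 and 5 in MRL, with sums of 461 to 535 CPM and 818 to 1360 CPM in BL6, and 375 to 515 CPM and 701 to 1260 CPM in MRL. Of 7 macrophage markers, 4 were called higher in BL6 and 1 in MRL, and of 6 fibroblast markers 3 and 0. Without the 3 libraries, 6 macrophage markers were called higher in BL6 and 5 in MRL, and 2 fibroblast markers in each strain. That fit called 67.6% of all genes in BL6 and 62.4% in MRL, in either direction. The part of these cell types in the results was not tested either. Summed muscle fibre markers were 103000 to 141000 CPM in unoperated and 48400 to 114000 CPM in operated BL6, and 93000 to 106000 CPM and 61700 to 79200 CPM in MRL, beside the falls of Hif1an, Egln1 and Arnt. Of the 8 markers 3 were called lower in BL6 (Acta1, Ckm and Myh4) and 2 in MRL (Acta1 and Ckm), beside 32.8% and 22.7% of all genes. Of these markers 0 were called higher, and their median log2 fold changes were -0.28 and -0.05. Their part in those falls was not tested.

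**Figure D4:**
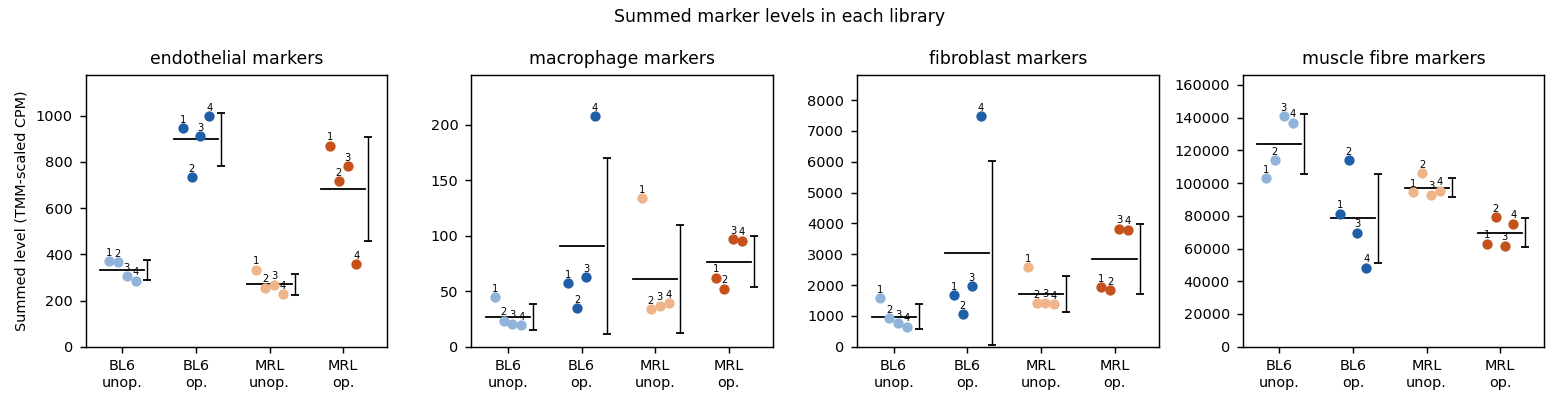
Summed level of endothelial, macrophage, fibroblast and muscle fibre markers (y axes, TMM-scaled CPM from 0) in every library by group (x axis), with group means as lines, bars of 1 SD and points numbered by replicate. Endothelial sums of operated muscle lie at 718 CPM and above, apart from 356 CPM in operated MRL replicate 4.

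For Hif1a, Epas1 and Vegfa the genes with the most alike pattern were found by Pearson's r of log2 CPM over the 16 libraries among 9615 genes of at least 5 CPM. For Hif1a these were Twsg1 (r = 0.905), Bzw1 (0.903) and Aebp2 (0.891). Aebp2 ran from 23.7 to 47.8 CPM and was higher in operated MRL than in operated BL6 by 0.47 on the log2 scale (adjusted p = 0.0215, edgeR). For Epas1 they were Xdh (0.923), the VEGF receptor gene Flt1 (0.92) and the mitochondrial gene mt-Nd4 (0.909). Flt1 had log2 fold changes with surgery of 0.47 (adjusted p = 0.143) in BL6 and 0.68 (adjusted p = 0.0562) in MRL, and 0.93 (adjusted p = 0.00121) without operated MRL replicate 4. For Vegfa they were Pfkfb2 (0.888), Rmnd1 (0.865) and Atp5j (0.844). The 16 points fall into 4 groups that share strain and surgery, and each gene was chosen as the highest of many, so these values describe likeness only.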

How the data were processed

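Total RNA of minced rotator cuff muscle was purified on miRNeasy columns, treated with DNase and sequenced by Illumina protocols, per the labels' protocols. The deposited table holds whole-number counts per gene for 16 samples, not normalized, per the file headers and values. STAR, FastQC, edgeR and the build mm10 are named in the submitters' processing notes, with no role or order. The counter, the annotation and the use of strand are not given in the sources used here. The authors also deposited a table with, per the file headers, log2 fold changes, p-values and false discovery rates for comparisons of groups. Its values are printed only where named as the authors'.

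Groups and replicate numbers came from the labels. Counts were scaled by the trimmed mean of M values (TMM) and filtered with filterByExpr (minimum count 10), which kept 11709 of 11710 genes. A quasi-likelihood model was fitted to all 16 samples in edgeR 4.0.16 (R 4.3.3), giving surgery in each strain, strain in each surgical state and the interaction. P-values were adjusted by Benjamini-Hochberg and genes called under 0.05. CPM and RPKM were computed from the deposited counts, with exon lengths of GENCODE M21 (GRCm38), which holds 11708 of the 11710 IDs. Ratios of 2 genes (0.5 added to each count) were tested by two-sided exact permutation. The code was tested on simulated data. No pair of replicates agreed within sampling noise. At this depth 3 counts correspond to 0.0718 to 0.122 CPM, a limit for counting error only.

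Alternatives were DESeq2 1.42.0, limma 3.58.1 (voom), and edgeR with scaling by total counts or by its RLE factors. Others were no filter, 2 groups per fit, a replicate block, no mitochondrial genes, 5 added counts in the ratios, and each library left out. Leaving out 3 libraries together was added after the data were seen. The members and the gene lists were chosen with earlier results of these data known. Named are all members, in each pathway list the first 3 measured genes and the called genes that rose and fell most with surgery in each strain, and the 3 genes most alike to Hif1a, Epas1 and Vegfa. Other named genes were chosen after their values were seen. Hif3a, Car9, Pgam1 and Lep, which were on the lists, were not analysed here.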

Additional observations from a re-analysis of the deposited data

Results flagged for a closer look

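For each of the 10 genes and each of the 4 groups, the highest and the lowest library were compared with the other 3, which makes 40 groups of libraries. In 5 of them 1 library lay so far from its nearest neighbour that the gap took up more than 0.829 of the group's range (Dixon's 95% critical value), and chance does so in about 1 in 20 groups. In operated MRL, replicate 4 held 226 CPM of Hif1an, with the others at 81.6 to 99.1 CPM, and 49.2 CPM of Arnt, with the others at 34.1 to 35.9 CPM. In operated BL6, replicate 4 held 120 CPM of Vegfb, with the others at 183 to 192 CPM. These 2 libraries are among the 3 left out together. In unoperated BL6, replicate 1 held 96.3 CPM of Egln3, with the others at 61.9 to 66.5 CPM. In unoperated MRL, replicate 2 held 241 CPM of Epas1, with the others at 211 to 216 CPM.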

How the results depend on the processing

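Leaving out 1 library at a time gave 3 to 5 called members in BL6 and 1 to 4 in MRL with surgery. The same fits called 61.4 to 69.8% of all genes in BL6 and 29.8 to 52.5% in MRL. Between operated strains they called 0 to 1 members, beside 8.8 to 15.7% of all genes. Between unoperated strains they called 0 throughout, beside 7.01 to 9.41%, and in the interaction 0 throughout, beside 0.00854 to 0.589%. The fit on 2 groups alone called 3 members in BL6, beside 64.5% of all genes. Leaving out 3 libraries together called 5 in MRL, beside 62.4%. Arnt, Egln1 and Hif1an in BL6 and Hif1an in MRL were called in each of 8 fits that left out 1 library of the 2 groups compared. Leaving out a library also leaves fewer samples. The other alternatives kept the remaining 42 counts of called genes within 1.5 times. Signs turned for values that were not called. Total-count scaling gave 0.0016 for Hif1a and 0.028 for Egln3 in BL6. Leaving out the 3 libraries gave 0.11 for Egln3 in BL6, -0.072 for Hif1a in MRL, -0.27 for Hif1an in the interaction and -0.14 for Hif1an between operated strains, and the cause was not tested. Leaving out 1 library at a time, the Egln3 log2 fold change ran from -0.25 to 0.14 in BL6 and from -0.28 to 0.027 in MRL. The difference in the log2 ratio of Hif1a to Epas1 ran from -0.60 to -0.29 in BL6 with surgery, the former without operated BL6 replicate 4 (exact permutation p = 0.0286 before adjustment), and from -0.39 to 0.12 in MRL, and that of Vegfa to Vegfb from -0.12 to 0.18 in BL6 and from -0.051 to 0.073 in MRL. With total counts in place of TMM, the median log2 fold change of all genes moved from 0.04 to 0.18 in BL6 and, between unoperated strains, from 0.01 to 0.15, where the genes called higher and lower moved from 588 and 628 to 742 and 313. Between operated strains they moved from 890 and 617 to 994 and 383. Over all genes the interaction called 29, beside 250 with DESeq2, 14 with total counts, 2 with the replicate block, 67 without the 3 libraries and 1 to 69 leaving out 1 library at a time. Fits of 2 groups alone called 2438 genes in place of 1216 between unoperated strains and 575 in place of 1507 between operated strains, and without operated MRL replicate 3 surgery in MRL called 3490 in place of 5272. Relative to the medians above the called members did not change direction. Depth limits most the genes of few counts, such as Arnt2, Angpt2 and Pgf.

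Replicate numbers are shared between groups in the titles only. The correlation of deviations of same-numbered samples was -0.474 to 0.452. For the 4 pairs of groups its means were -0.141 (surgery in BL6), 0.092 (surgery in MRL), 0.16 (unoperated strains) and 0.165 (operated strains). The means for differently numbered samples were 0.0531, -0.0405, -0.0463 and -0.0443 in the same order. With 4 libraries per group these values do not settle whether samples of the same number belong together. A fit that took the replicate block as a term called 5 of the 10 genes in BL6 and 3 in MRL, the same ones as without it, and 0 in the other comparisons. That fit called 67.7% of all genes in BL6 and 44.4% in MRL.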
